A study of Homo sapiens with 4 samples.

Results

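The 4 ID genes, ID1, ID2, ID3 and ID4, were examined in differentiating human pluripotent cells in which the secretion of Wnt ligands was blocked or left intact. They were taken from the deposited expression table by gene symbol, each symbol stood on 1 row, and they make up 4 of its 58365 rows. The cells were H1, a line of human embryonic stem cells, collected on day 2 of differentiation towards blood. The medium of every library held 40 ng/ml activin A and 50 ng/ml BMP4 per the labels, whereas the study's methods give these concentrations the other way round. DMSO, the vehicle, was the control (2 libraries), and the treated group received IWP2, an inhibitor of Porcupine, the enzyme that Wnt ligands need in order to be secreted (2 libraries, dose not given in the labels). The question was how expression on the way from pluripotency to mesoderm changes when the cells cannot secrete Wnt. All libraries came from a single line, undifferentiated cells were not analysed here, and nothing in the labels says that the 2 libraries of a group came from separate cultures, so the p-values measure only the spread between these libraries.

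ID proteins are helix-loop-helix proteins that lack a DNA-binding region. They pair with E proteins, which are general basic helix-loop-helix (bHLH) factors, and so keep them from forming the dimers with tissue-specific bHLH factors that switch on lineage genes. The ID genes are classical direct targets of BMP signalling: a BMP ligand activates a receptor pair, the receptors phosphorylate SMAD1 and SMAD5, and these enter the nucleus with SMAD4 and bind regulatory sequences of the ID genes. In pluripotent cells they are widely used as a readout of this pathway.

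Levels are in FPKM, fragments scaled to transcript length and library depth, so that levels of different genes can be set side by side. Each library held roughly 17900000 to 22200000 fragments, as estimated from the value of a single fragment in genes with 1 transcript, and between 24205 and 24512 genes above 0. Replicates had a Pearson r across genes of 0.972 in the DMSO group and 0.980 in the IWP2 group, and genes are not independent replicates. MT-ATP8, a mitochondrial gene, took 33374 and 26236 FPKM in the replicate 1 libraries of the DMSO and IWP2 groups, against 9279 and 11660 FPKM in the replicate 2 libraries. The change of a gene is given as the log2 fold change on the scale of log2(FPKM + 1), with its standard error (SE), from limma fitted to the 14022 genes with a mean of at least 1 FPKM. A gene was called when its p-value, adjusted over all those genes by the Benjamini-Hochberg method, was under 0.05. By this rule 946 genes (6.75%) were called higher and 1183 genes (8.44%) lower in the IWP2 libraries, and the median log2 change over all genes tested was -0.02. Which direction held more calls depended on the scaling, with 1091 higher and 1059 lower after quantile normalisation and 1143 higher and 1022 lower with equal library medians. Fewer genes were called without IWP2-1 (91 higher, 227 lower) or IWP2-2 (126 higher, 308 lower), and 656 higher and 683 lower without DMSO-1 and 578 and 810 without DMSO-2.

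The ID genes lie on 4 chromosomes (GRCh38, GENCODE 29, all protein coding). ID1 (ENSG00000125968.8) lies at chr20:31605283-31606515 on the plus strand. ID2 (ENSG00000115738.9) lies at chr2:8678845-8684453 on the plus strand. ID3 (ENSG00000117318.8) lies at chr1:23557918-23559794 on the minus strand. ID4 (ENSG00000172201.11) lies at chr6:19837386-19840684 on the plus strand. They are compact genes, with 994 bases in 2 exons for the ID1 transcript used to judge depth, 2041 bases in 5 exons for ID2, 1251 bases in 3 exons for ID3 and 2344 bases in 3 exons for ID4.

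The sequence just before each start site is shown because SMAD1 and SMAD5 are known to bind GC-rich elements near BMP target genes. The start sites are those of RefSeq (GRCh38.p14), where all 4 members were matched. The 250 bases before the start are given for ID1 (chr20:31605039-31605288, plus strand) and ID4 (chr6:19837120-19837369, plus strand). For ID2 (chr2:8682021-8682050, plus strand) and ID3 (chr1:23559507-23559536, minus strand) only the 30 bases from 35 to 6 before the start are given, since exons of the gene's own GENCODE transcripts cover 202 and 250 of the 250 bases. Such exons also cover all 30 bases given for ID2 and all 30 given for ID3. They cover the last 6 bases of the ID1 stretch and 0 bases of the ID4 stretch. Each runs 5′ to 3′ on the strand of the gene, and capitals mark GGAGCC, on either strand, and TATAA.
ID1: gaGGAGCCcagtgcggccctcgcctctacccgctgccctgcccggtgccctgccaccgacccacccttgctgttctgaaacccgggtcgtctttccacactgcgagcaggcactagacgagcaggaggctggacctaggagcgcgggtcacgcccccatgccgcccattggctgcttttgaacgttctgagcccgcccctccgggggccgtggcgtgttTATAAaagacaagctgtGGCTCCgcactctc
ID2: tgcggataaaagccgccccgccgggctcgg
ID3: aggctcTATAAgtgaccgccgcggcgagcg
ID4: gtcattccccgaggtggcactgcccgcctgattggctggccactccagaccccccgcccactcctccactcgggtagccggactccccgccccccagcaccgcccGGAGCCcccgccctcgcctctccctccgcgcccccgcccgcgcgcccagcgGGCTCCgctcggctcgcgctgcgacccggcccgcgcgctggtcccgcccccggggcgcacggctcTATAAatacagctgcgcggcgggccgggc

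In the full 250 bases, GGAGCC on either strand, an element that SMAD1 and SMAD5 bind, was found 2 times in ID1, 1 time in ID3 and 2 times in ID4, and not in ID2. It is a common sequence, present in 30.6% of 35116 promoters of the same length. GGCGCC, the palindromic form of the element, was found in none of the 4 (16.4% of all promoters), and GTCT, the SMAD box, in all 4 (77.5% of all promoters). CANNTG, the E-box that E proteins bind, was found in ID2 and ID4 (61.8% of all promoters). The letters TATAA stood on the gene's strand 31 bases before the start in ID1, 29 in ID3 and 29 in ID4. They did not stand between 20 and 40 bases before the start of ID2, and 3.91% of all promoters held them in that stretch; this search was added after the sequences had been seen. The GC content of the 250 bases was 66.0% in ID1, 69.2% in ID2, 62.0% in ID3 and 78.8% in ID4. The median over all promoters was 58.0%. In ID2 and ID3, 202 and 250 of these bases are exonic in GENCODE transcripts.

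ID1, ID3 and ID4 were higher in the IWP2 libraries, by 2.73-fold, 2.05-fold and 2.40-fold, whereas the 1.36-fold higher level of ID2 did not pass the adjusted threshold. In all 4 genes both IWP2 libraries lay above both DMSO libraries, as in 27.9% of all genes tested, while both lay below in 31.9%. Thus 3 of the 4 members were called higher, where 6.75% of all genes were.

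ID1 was by far the most abundant ID gene. Its level was 789 and 644 FPKM in the DMSO libraries and 1772 and 2137 FPKM in the IWP2 libraries (717 ± 103 against 1954 ± 258, mean ± SD, n = 2 each). Both IWP2 libraries stood well above the DMSO pair, and the level passed from rank 118 and 141 among all genes of the DMSO libraries to rank 40 and 35 in the IWP2 libraries. ID1 rose by 1.45 on the log2 scale (SE 0.15, 95% interval 1.07 to 1.82, limma adjusted p = 0.00463), and 164 of the 946 genes called higher rose more. The call held without any single library, but only narrowly without IWP2-1 (log2 fold change 1.58) or IWP2-2 (1.31). The call was lost when the fit was repeated on 28917 genes with no filter on low values (limma adjusted p = 0.0741).

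ID4, the least abundant of the 4, differed least between replicates. Its level was 31.3 and 31.2 FPKM in the DMSO libraries and 73.4 and 76.7 FPKM in the IWP2 libraries (31.3 ± 0.0591 against 75.1 ± 2.28, mean ± SD, n = 2 each). The 2 libraries of each group lay close together and the groups were far apart. ID4 rose by 1.24 on the log2 scale (SE 0.08, 95% interval 1.03 to 1.44, limma adjusted p = 0.00133), with 255 genes rising more, and the call held without any single library.

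ID3 rose too, with a wider spread. Its level was 83.6 and 98.5 FPKM in the DMSO libraries and 157 and 216 FPKM in the IWP2 libraries (91.1 ± 10.5 against 186 ± 41.9, mean ± SD, n = 2 each). The groups did not overlap, but the IWP2 libraries lay further from each other than the DMSO libraries did. Its log2 fold change was 1.01 (SE 0.18, 95% interval 0.57 to 1.46, limma adjusted p = 0.0209), and 401 genes rose more. This call rested on all 4 libraries: the adjusted p was 0.104 without DMSO-1, 0.0536 without DMSO-2, 0.0539 without IWP2-1 and 0.0891 without IWP2-2, with log2 fold changes between 0.78 and 1.24, and 0.130 with no filter on low values.

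ID2 changed least. Its level was 113 and 136 FPKM in the DMSO libraries and 161 and 176 FPKM in the IWP2 libraries (124 ± 16.2 against 168 ± 10.9, mean ± SD, n = 2 each). The groups did not overlap, but the gap between them was close to the spread within the DMSO pair. The log2 fold change was 0.44 (SE 0.12, 95% interval 0.15 to 0.74), and it did not pass (limma adjusted p = 0.0665, unadjusted 0.0119). It passed with the medians of the libraries set equal (adjusted p = 0.0466) and with the replicate number as a block (0.0368). ID2-AS1, the antisense gene of ID2 (chr2:8666636-8681863, minus strand), shares 38 exonic bases with it and was near 0 (0.451, 0, 1.18 and 0.862 FPKM in DMSO-1, DMSO-2, IWP2-1 and IWP2-2), and whether fragments were counted by strand is not stated.

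**Figure D1:**
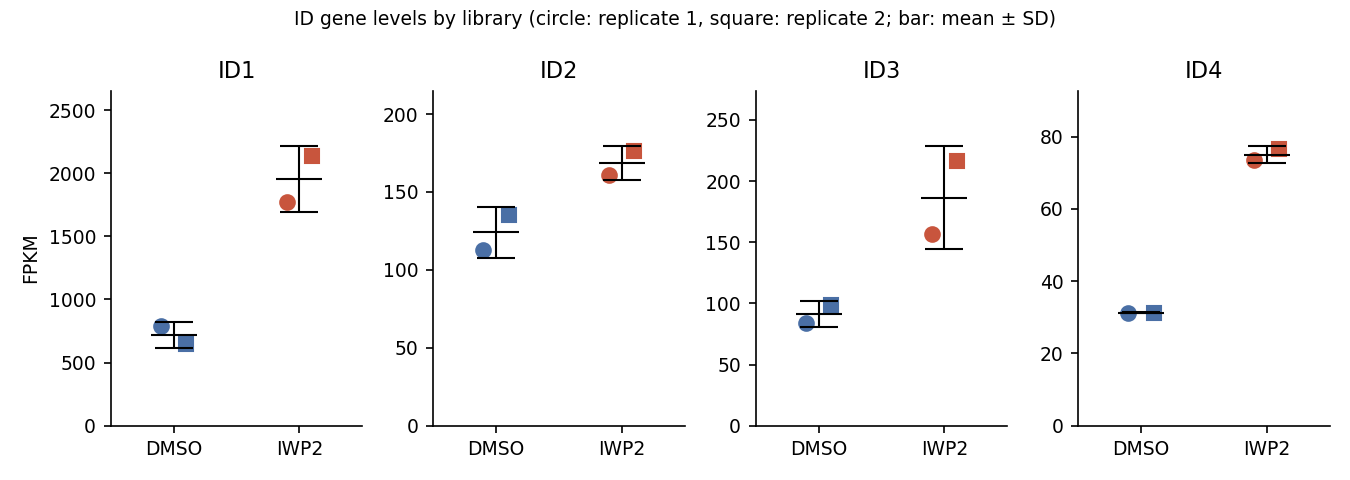
Level of each ID gene (FPKM, vertical axis starting at 0, with a scale of its own for each gene) in the 2 DMSO and 2 IWP2 libraries, with circles for replicate 1, squares for replicate 2 and bars for the mean ± SD. Both IWP2 libraries stand above both DMSO libraries in every panel; the gap is narrowest for ID2 (113 and 136 against 161 and 176 FPKM).

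**Figure D2:**
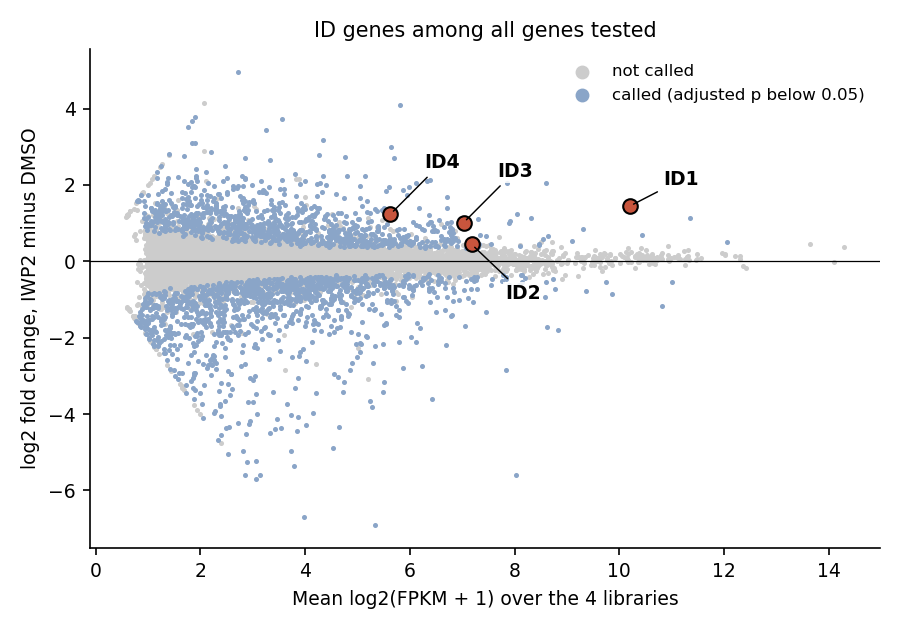
Log2 fold change, IWP2 minus DMSO (vertical axis), against the mean of log2(FPKM + 1) over the 4 libraries (horizontal axis) for the 14022 genes tested, with genes called in blue, other genes in grey and the ID genes as large red points. ID1 lies furthest right of the 4, at a log2 fold change of 1.45, and ID2 lies lowest, at 0.44.

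At the depth of these libraries the level of ID1 stood for about 11437 to 40558 fragments a library, and that of ID4 for about 1309 to 3815. The counting error alone was thus between 0.5% (ID1 in IWP2-2) and 2.76% (ID4 in DMSO-2) of a level, and it covers neither library preparation nor differences between cultures. An exact permutation test over 2 libraries against 2 cannot give a p under 0.33, so a single ratio of genes cannot pass a threshold by that test.

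The order of the levels was the same in both DMSO libraries: ID1, ID2, ID3 and ID4, with no overlap between neighbours. In the IWP2 libraries ID1 was still first and ID4 last, but ID2 (161 and 176 FPKM) and ID3 (157 and 216 FPKM) overlapped and their order could not be told. The summed level of the 4 genes was 1017 and 909 FPKM in the DMSO libraries and 2163 and 2606 FPKM in the IWP2 libraries. ID1 made up 77.6% and 70.8% of this sum in the DMSO libraries and 81.9% and 82.0% in the IWP2 libraries. The share of ID2 was 11.1% and 14.9% in the DMSO libraries and 7.43% and 6.76% in the IWP2 libraries, so the IWP2 libraries held a lower share of ID2 although its level was not lower. ID3 made up 8.22% and 10.8% of the DMSO sums and 7.25% and 8.29% of the IWP2 sums, which overlap. ID4 made up 3.08% and 3.44% of the DMSO sums and 3.40% and 2.94% of the IWP2 sums, which overlap too.

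**Figure D3:**
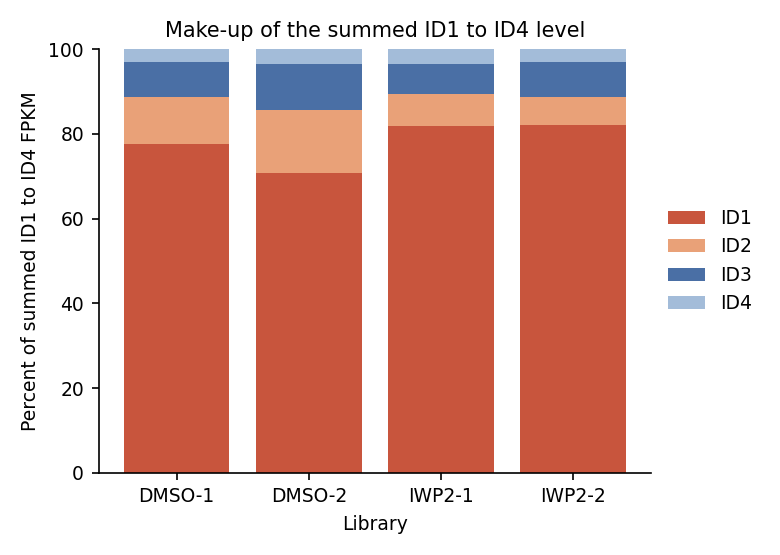
Percent of the summed ID1 to ID4 FPKM taken by each gene (vertical axis, stacked) in each library (horizontal axis). The ID2 section is thinner in the IWP2 libraries (7.43% and 6.76%) than in the DMSO libraries (11.1% and 14.9%), and ID1 takes the largest section in every library.

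Of the 6 ratios between members, those with ID2 separated the groups. ID1 was 7.01 and 4.75 times the level of ID2 in the DMSO libraries and 11.0 and 12.1 times in the IWP2 libraries. ID2 was 3.60 and 4.34 times the level of ID4 in the DMSO libraries and 2.19 and 2.30 times in the IWP2 libraries. ID2 was 1.35 and 1.38 times the level of ID3 in the DMSO libraries and 1.03 and 0.815 times in the IWP2 libraries. ID1 was 9.44 and 6.53 times the level of ID3 in the DMSO libraries and 11.3 and 9.89 times in the IWP2 libraries, which did not overlap either. These 4 ratios reached the smallest p that the exact permutation test allows, 0.33, and thus did not pass. The ratios of ID1 to ID4 (25.2 and 20.6 against 24.1 and 27.9) and of ID3 to ID4 (2.67 and 3.15 against 2.13 and 2.82) overlapped between the groups, each with an exact permutation p of 0.667.

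The genes whose profile over the 4 libraries was most like that of an ID gene were found as those with the smallest root mean square difference of log2 values centred on the gene's mean, among 7111 genes with a mean of at least 10 FPKM. For ID1 these were ACHE, the acetylcholine esterase (0.0297), FOXO4, a forkhead factor (0.0627), and TNFRSF12A, a receptor of the TNF family (0.0724), and 10 genes came within 0.1. For ID4 they were CDA, a cytidine deaminase (0.0274), IGDCC3 (0.0590) and WEE1, a kinase that holds back entry into mitosis (0.0594), and 24 genes came within 0.1. For ID3 they were EPB41L4A-AS1 (0.0795), GMDS, an enzyme of GDP-fucose synthesis (0.0867), and MAD2L2 (0.0957), the 3 genes within 0.1. For ID2, whose profile is flatter, they were KPNA2, an importin (0.0132), OIP5 (0.0142) and SETD6, a methyltransferase (0.0180), and 160 genes came within 0.1. The ID genes themselves were left out of the candidates, so their likeness to each other was not ranked. With 4 libraries in 2 groups this likeness is a description only.

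The Wnt feedback targets were mostly lower in the IWP2 libraries. Whether this came from the inhibitor itself or from the cell types present was not tested. Of 12 listed genes 11 were tested, 8 were called lower and none higher (none at an unadjusted p under 0.05 either), with a median log2 change of -1.16. SP5, a transcription factor induced by beta-catenin, was at 53.2 and 47.0 FPKM in the DMSO libraries and at 0.379 and 0.363 FPKM in the IWP2 libraries, and fell by 5.22 on the log2 scale (SE 0.12, adjusted p = 0.000186). LGR5, the R-spondin receptor, DKK1, a secreted Wnt inhibitor, and NKD1, an intracellular one, were called lower too. Their log2 changes were -4.54, -4.24 and -4.12. NKD2 (0.28), ZNRF3 (0.19) and RNF43 (-0.17) were not called. Without IWP2-1 or without IWP2-2, 5 of the list were called lower.

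The libraries also differed in the genes of cell identity, some of which moved with the ID genes and others against them. Of 4 pluripotency markers 3 were called higher, none lower, and their summed level was 856 and 661 FPKM in the DMSO libraries and 2069 and 2055 FPKM in the IWP2 libraries. SOX2 was near 0 in the DMSO libraries (0.193 and 0.174 FPKM) and at 35.6 and 36.1 FPKM in the IWP2 libraries, and POU5F1, at 751 and 571 FPKM in the DMSO libraries and 1854 and 1844 FPKM in the IWP2 libraries, rose 2.80-fold (adjusted p = 0.0041). The call of POU5F1 was lost without IWP2-1 (adjusted p = 0.0646) or IWP2-2 (0.0535), and NANOG, at 23.0, 9.54, 33.6 and 27.5 FPKM, was not called (adjusted p = 0.165). The 5 markers of the primitive streak and nascent mesoderm were all called lower (APLNR, MESP1, MIXL1, EOMES and T), and their sum was 864 and 1075 FPKM against 47.2 and 50.9 FPKM. Of 4 definitive endoderm markers 3 were called lower, with sums of 1775 and 2158 FPKM against 119 and 130 FPKM. CER1 took most of the DMSO sums (1612 and 2048 FPKM), and SOX17, at 155 and 104 FPKM in the DMSO libraries and 79.7 and 94.9 FPKM in the IWP2 libraries, was not called (log2 fold change -0.54, adjusted p = 0.152). Of 6 markers of amnion or trophoblast, cell types that BMP can induce from pluripotent cells, 5 were tested and 3 were called higher (KRT7, TFAP2A and GABRP), with sums of 64.2 and 64.2 FPKM against 82.7 and 89.4 FPKM. GATA3, the most abundant of them, was at 39.7 and 43.7 FPKM in the DMSO libraries and 34.6 and 37.7 FPKM in the IWP2 libraries (log2 fold change -0.20, adjusted p = 0.246), and ISL1 was not called either (-0.09, adjusted p = 0.682). OTX2 among 4 neural ectoderm markers and KDR among 4 of haemato-endothelial cells were the only members of these lists tested, and both were called lower, KDR not without DMSO-2 (adjusted p = 0.0664), IWP2-1 (0.116) or IWP2-2 (0.142). PAX6, SOX1 and ZIC1 of the former list and CDH5, PECAM1 and TAL1 of the latter were near 0 and did not pass the filter. OTX2 was at 55.8 and 61.2 FPKM in the DMSO libraries and 2.19 and 2.95 FPKM in the IWP2 libraries. Its fall alone does not show a loss of neural ectoderm. The marker calls were fewer without IWP2-1 (1 pluripotency marker higher, 4 streak and mesoderm markers and 1 endoderm marker lower, 1 amnion or trophoblast marker higher) and without IWP2-2 (2, 4, 1 and 1). In bulk RNA, fewer cells of a type and less RNA per cell cannot be told apart, and the part of these differences in the level of the ID genes was not tested.

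The rest of the BMP pathway did not move as a whole with the ID genes. Over the ligands, receptors and SMADs, antagonists and induced genes, 39 of 52 genes were tested, 5 were called higher and 12 lower, with a median log2 change of -0.31 against -0.02 over all genes tested. The counts were 3 higher and 13 lower without DMSO-1, 3 and 12 without DMSO-2, 0 and 8 without IWP2-1, and 0 and 9 without IWP2-2 (5 and 6 higher at an unadjusted p under 0.05 in the last 2 fits).

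Of 11 ligand genes only BMP2, BMP4 and BMP7 were tested, and the values are of the cells' own transcripts, not of the BMP4 protein added to the medium. BMP2 was at 101 and 122 FPKM in the DMSO libraries and at 4.55 and 4.52 FPKM in the IWP2 libraries, and fell by 4.34 on the log2 scale (SE 0.12, adjusted p = 0.000186). BMP4 was at 171 and 193 FPKM in the DMSO libraries and at 68.8 and 66.0 FPKM in the IWP2 libraries, and fell by 1.42 (SE 0.09, adjusted p = 0.00135). BMP7, a less abundant ligand, was at 3.51 and 3.96 FPKM in the DMSO libraries and at 11.4 and 9.58 FPKM in the IWP2 libraries, and rose by 1.28 (SE 0.14, adjusted p = 0.00573). Thus the most abundant endogenous ligands were lower in the libraries in which ID1, ID3 and ID4 were higher. The call of BMP7 was lost without IWP2-1 (adjusted p = 0.0782) or IWP2-2 (0.0521). BMP6, at 1.52, 0.601, 0.0942 and 0.146 FPKM, did not pass the filter.

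Among receptors and SMADs 10 of 11 genes were tested, 1 was called higher and 2 lower. BMPR1A, the main type I receptor for BMP2 and BMP4, was at 40.2 and 38.5 FPKM in the DMSO libraries and at 60.5 and 51.3 FPKM in the IWP2 libraries (log2 fold change 0.49, SE 0.11, adjusted p = 0.0404). Its call was lost without any 1 of the libraries (adjusted p = 0.115 without DMSO-1, 0.129 without DMSO-2, 0.198 without IWP2-1 and 0.0903 without IWP2-2). ACVRL1, a type I receptor of endothelial cells, was at 3.73 and 4.16 FPKM in the DMSO libraries and at 0.295 and 0.305 FPKM in the IWP2 libraries, and fell by 1.93 (SE 0.17, adjusted p = 0.00342; 0.0506 without IWP2-1). ACVR2A, a type II receptor, was lower by a log2 change of -0.90 (SE 0.15, adjusted p = 0.0200; 0.0653 without DMSO-2, 0.146 without IWP2-1 and 0.138 without IWP2-2). The transcripts of the SMADs that carry the signal were not called: SMAD1 had a log2 change of 0.00 (adjusted p = 0.996), SMAD5 of -0.38 (0.106) and SMAD4 of -0.05 (0.733). Their phosphorylation, which carries the signal, was not measured in these libraries.

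Besides the ID genes, 18 genes known to be induced by BMP were listed and 15 tested. Of these 2 were called higher and 5 lower, with a median log2 change of -0.40. Without either IWP2 library 0 were called higher (2 at an unadjusted p under 0.05) and 3 lower, and without either DMSO library 1 was called higher. The inhibitory SMAD6, which BMP induces as feedback, went the other way from the ID genes, at 106 and 126 FPKM in the DMSO libraries and 64.0 and 67.4 FPKM in the IWP2 libraries (log2 fold change -0.81, SE 0.11, adjusted p = 0.0103; 0.107 without IWP2-1 and 0.0843 without IWP2-2). SMAD7, the other inhibitory SMAD, was at 42.3, 36.7, 29.4 and 32.2 FPKM and was not called (log2 fold change -0.35, adjusted p = 0.101). BAMBI, a decoy receptor that BMP also induces, was at 320 and 284 FPKM in the DMSO libraries and 395 and 439 FPKM in the IWP2 libraries (log2 fold change 0.46, SE 0.10, adjusted p = 0.0405). The call of BAMBI was lost without any 1 of the libraries (adjusted p = 0.0773 without DMSO-1, 0.140 without DMSO-2, 0.137 without IWP2-1 and 0.209 without IWP2-2). SMAD6, SMAD7 and BAMBI were named after their values had been seen.

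The transcription factors of the list carried its largest changes. MSX1, a homeobox factor, was at 36.3 and 29.6 FPKM in the DMSO libraries and at 1.04 and 1.23 FPKM in the IWP2 libraries, and fell by 3.99 on the log2 scale (SE 0.15, adjusted p = 0.000301). TBX3, a T-box factor, was at 70.6 and 77.3 FPKM against 10.5 and 11.4 FPKM, and fell by 2.65 (SE 0.10, adjusted p = 0.000301). CDX2, a factor of posterior mesoderm and of trophoblast, was at 5.49 and 5.21 FPKM against 0.233 and 0.145 FPKM, and fell by 2.42 (SE 0.17, adjusted p = 0.00163). These 3 calls held without any single library. HAND1, a bHLH factor of extraembryonic and lateral mesoderm, was at 234 and 322 FPKM against 101 and 119 FPKM (log2 fold change -1.32, SE 0.18, adjusted p = 0.00981; 0.104 without IWP2-1 and 0.0690 without IWP2-2). TFAP2A, a factor of surface ectoderm and amnion, moved as the ID genes did, from 16.5 and 12.0 FPKM to 34.0 and 34.2 FPKM (log2 fold change 1.22, SE 0.16, adjusted p = 0.00912; 0.102 without IWP2-1 and 0.0903 without IWP2-2). The genes of this list thus did not share 1 direction.

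**Figure D4:**
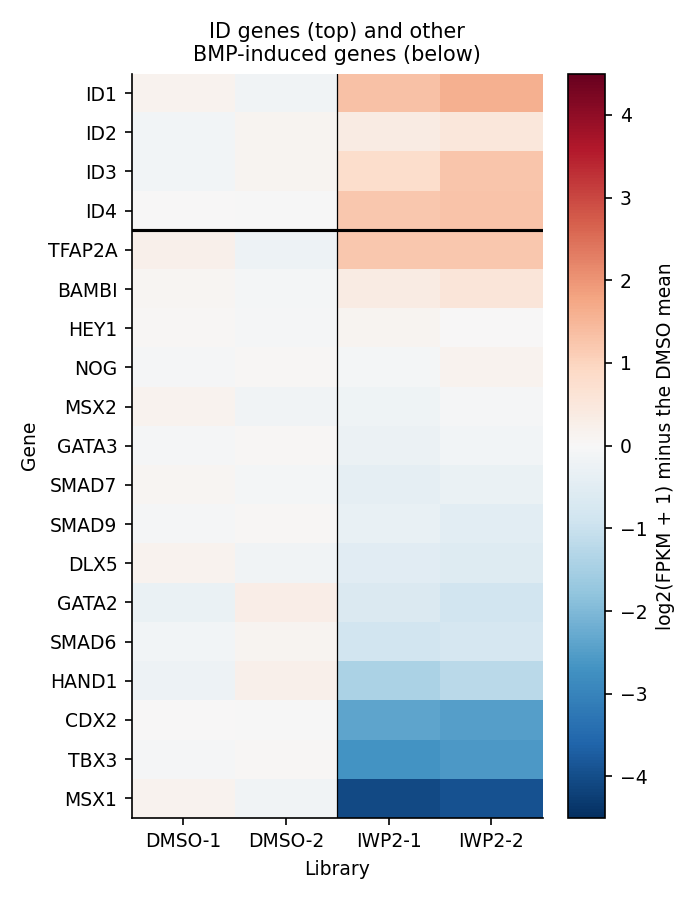
Log2(FPKM + 1) minus the mean of the DMSO libraries (colour, red above and blue below) for the ID genes (upper block) and the 15 other BMP-induced genes tested (lower block) in each library (columns). The ID genes are red in both IWP2 columns, ID2 more faintly than the others. TFAP2A is red there too, and BAMBI about as faintly as ID2, whereas MSX1, TBX3 and CDX2 are the darkest blue.

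Of 14 secreted BMP antagonists 12 were tested, 1 was called higher and 3 lower, with a median log2 change of -0.26. At an unadjusted p under 0.05, 3 were higher and 5 lower. FSTL1, named after its values had been seen, was the most abundant of them in the IWP2 libraries. It was at 182 and 150 FPKM against 294 and 225 FPKM and was not called (log2 fold change 0.64, limma adjusted p = 0.0628). CER1, which binds BMP and Nodal ligands and marks endoderm, was at 1612 and 2048 FPKM in the DMSO libraries, above ID1 there, and at 38.6 and 34.2 FPKM in the IWP2 libraries (log2 fold change -5.60, SE 0.14, adjusted p = 0.000186). BMPER, a BMP-binding protein, was at 59.2 and 74.2 FPKM against 2.56 and 1.65 FPKM, and fell by 4.45 (SE 0.19, adjusted p = 0.000436). FST, follistatin, which binds activin and some BMPs, was at 58.2 and 51.7 FPKM against 13.8 and 15.0 FPKM, and fell by 1.86 (SE 0.10, adjusted p = 0.000847). These 3 calls held without any single library. CHRDL1, a relative of chordin, was low at 1.11 and 1.19 FPKM and was at 4.05 and 3.31 FPKM in the IWP2 libraries (log2 fold change 1.12, SE 0.17, adjusted p = 0.0141; 0.0553 without DMSO-1, 0.125 without IWP2-1 and 0.0865 without IWP2-2). NOG, noggin, which was in the antagonist list and in that of induced genes, was at 29.3, 31.8, 28.4 and 34.4 FPKM (log2 fold change 0.03, adjusted p = 0.894).

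**Figure D5:**
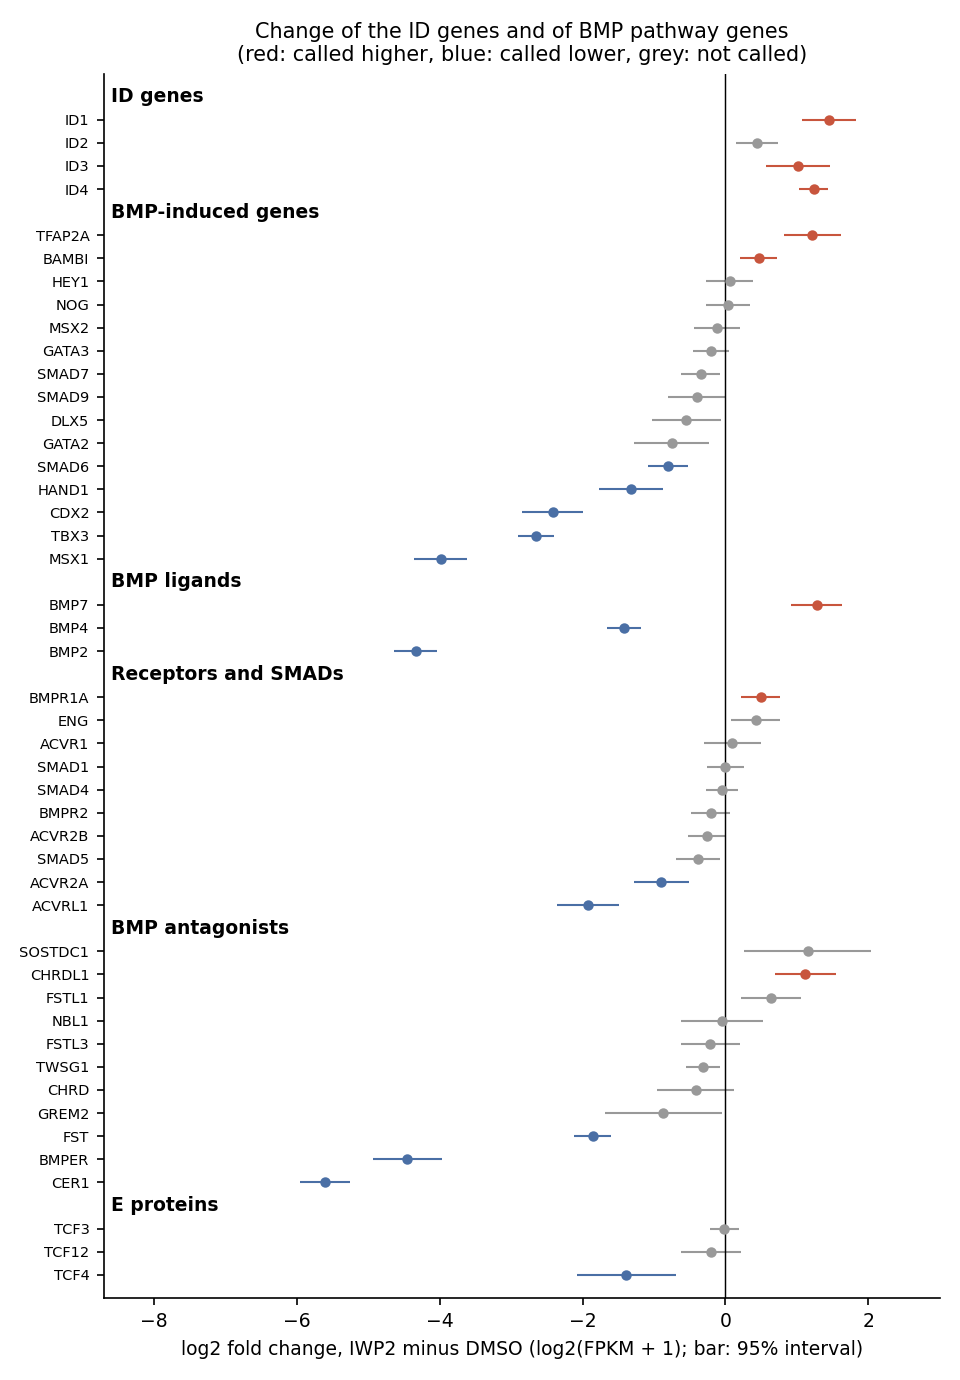
Log2 fold change, IWP2 minus DMSO (horizontal axis, points with 95% intervals), for the ID genes, the genes tested of the BMP lists and the E proteins (vertical axis, 1 row a gene), with genes called higher in red, lower in blue and not called in grey. ID1, ID3 and ID4 lie right of 0 between 1.01 and 1.45, whereas CER1, BMPER, BMP2 and MSX1 lie furthest left.

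The partners of the ID proteins were measured in the same libraries. Of 3 E protein genes none was called higher (none at an unadjusted p under 0.05 either) and 1 was called lower. TCF3, which encodes the E12 and E47 proteins, was the most abundant, at 160 and 160 FPKM in the DMSO libraries and 164 and 152 FPKM in the IWP2 libraries, with a log2 fold change of -0.01 (95% interval -0.22 to 0.19, adjusted p = 0.932). The level of ID1 was 4.94 and 4.03 times that of TCF3 in the DMSO libraries and 10.8 and 14.0 times in the IWP2 libraries. TCF12 was at 25.3, 29.9, 27.4 and 20.6 FPKM and was not called (log2 fold change -0.20, adjusted p = 0.468). TCF4 was at 71.8 and 67.4 FPKM in the DMSO libraries and 35.1 and 19.2 FPKM in the IWP2 libraries (log2 fold change -1.39, SE 0.27, adjusted p = 0.0293; 0.131 without DMSO-1 and 0.0961 without DMSO-2).

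The bHLH factors that act as dimers with E proteins were on the whole scarce, with 9 of 21 tested. Of these 5 were called lower and none higher (none at an unadjusted p under 0.05 either), with a median log2 change of -1.32, and 2 were called lower without IWP2-1. MESP1, a factor of the earliest mesoderm, was at 47.6 and 74.6 FPKM in the DMSO libraries and at 0.244 and 0.087 FPKM in the IWP2 libraries, and fell by 5.70 on the log2 scale (SE 0.23, adjusted p = 0.000403). Its paralogue MESP2 fell by 3.96 (SE 0.19, adjusted p = 0.000606). HAND2, a factor of the heart and limb, was at 3.38 and 4.35 FPKM against 0.0785 and 0.127 FPKM, and fell by 2.13 (SE 0.20, adjusted p = 0.00356; 0.0539 without IWP2-1). LYL1, a factor of blood progenitors, was at 3.88 and 3.80 FPKM against 0.353 and 0.412 FPKM, and fell by 1.81 (SE 0.17, adjusted p = 0.00361; 0.0539 without IWP2-1).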

How the data were processed

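RNA of 4 libraries, 2 from DMSO and 2 from IWP2 cultures, was extracted with Trizol and prepared by the submitters from 2 ug of total RNA with an Illumina TruSeq kit. The submitters' processing notes name BWA, Bowtie and RSEM, with no versions, and the build hg19, but the start counted from 1 gave 56554 of 58102 gene IDs (97.34%) the span of GENCODE 29 on GRCh38. The deposited values are FPKM per gene as the authors computed them, not counts. Columns were matched to groups by the sign before IWP2 in their names (minus, DMSO; plus, IWP2) and keep the number of the name as replicate number, and 0 columns of values were left out.

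FPKM values were transformed as log2(FPKM + 1). Genes with a mean of at least 1 FPKM were fitted with limma 3.58.1 (trended prior, R 4.3.3), and p-values were adjusted over all genes tested. The fit was tested on simulated data. Members and gene lists were chosen with earlier results of these data known. From each list the 4 called genes with the largest change were named, filled where fewer were called with the most abundant members, together with all members of lists of up to 4 genes. Promoters were those of RefSeq, and the protein sequences were not compared here. Alternatives changed the pseudocount, filter, scaling, prior, threshold, replicate block and libraries used.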

Additional observations from a re-analysis of the deposited data

How the results depend on the processing

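All 4 ID genes had a positive log2 fold change under each of the 11 alternatives fitted (another pseudocount, no filter, 3 scalings, no trend, a replicate block and each library left out), and none of the ID genes changed direction. The median log2 change of all genes tested was -0.02 as reported, 0.02 after quantile normalisation and 0.05 with equal medians, and calls were then more often higher than lower (1091 and 1059; 1143 and 1022). The log2 fold change ranged from 1.30 to 1.59 for ID1 (adjusted p 0.00181 to 0.0741), from 0.31 to 0.57 for ID2 (0.0368 to 0.291), from 0.78 to 1.24 for ID3 (0.00689 to 0.130) and from 1.21 to 1.31 for ID4 (0.00115 to 0.0360). With no filter, 28917 genes were tested, and 118 were called higher and 263 lower. The calls of ID1 (1.45, adjusted p = 0.0741) and ID3 (1.01, adjusted p = 0.130) were lost. In that fit 0 BMP pathway genes were called higher (9 at an unadjusted p under 0.05). This alternative adjusts over more genes and also refits the spread with genes of low values included. With library medians set equal, ID2 was called (0.51, adjusted p = 0.0466). Without the trend 3 BMP pathway genes were called higher. A change of at least 1 on the log2 scale as a further condition left 412 genes higher and 588 lower. Without 1 library, 91 (without IWP2-1) to 656 (without DMSO-1) genes were called higher and 227 to 810 lower, 0 to 3 BMP pathway genes were called higher, and the log2 fold change of ID3 was 0.78 to 1.24 with no call. The labels do not say that replicate numbers pair the libraries, and deviations of same-numbered libraries from their group means correlated at 0.152 over only 2 pairs; with a replicate block 862 genes were called higher and 1065 lower, and ID2 was called (0.44, adjusted p = 0.0368). Of 330 counts for single lists under these alternatives, 283 lay within 1.5 times the count reported. With 2 libraries a group, changes of the size of that of ID2 are near the limit of what the fit can call.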

Other observations

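The HES and HEY repressors are bHLH factors of the Notch pathway that ID proteins also bind. Of 10 listed genes 5 were tested, 1 was called lower and none higher (none at an unadjusted p under 0.05 either), with a median log2 change of 0.06. HEY2 was at 10.3 and 11.9 FPKM in the DMSO libraries and at 1.77 and 2.01 FPKM in the IWP2 libraries, and fell by 2.06 on the log2 scale (SE 0.14, limma adjusted p = 0.00147). HES1 was at 24.5, 27.6, 25.2 and 29.2 FPKM in DMSO-1, DMSO-2, IWP2-1 and IWP2-2 (log2 fold change 0.06, adjusted p = 0.782). HES6 (-0.15, adjusted p = 0.564), HEY1 (0.06, adjusted p = 0.793) and HES4 (0.32, adjusted p = 0.199) were not called either. The other 5 genes were too low to be tested.

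The ratio of ID1 to SMAD6, BMP4 and BAMBI, chosen from the BMP lists, was higher in both IWP2 libraries than in both DMSO libraries. SMAD6 and BAMBI were named after their values had been seen. Since ID1 was higher and SMAD6 and BMP4 lower in both IWP2 libraries, the ratios to SMAD6 and BMP4 had to separate the groups. ID1 was 7.44 and 5.09 times the level of SMAD6 in the DMSO libraries and 27.7 and 31.7 times in the IWP2 libraries. It was 4.61 and 3.33 times the level of BMP4 in the DMSO libraries and 25.7 and 32.4 times in the IWP2 libraries. It was 2.47 and 2.26 times the level of BAMBI in the DMSO libraries and 4.49 and 4.87 times in the IWP2 libraries, whereas the ratio of ID2 to BAMBI overlapped between the groups (0.352 and 0.477 against 0.407 and 0.401). These ratios are descriptions, since 2 libraries against 2 cannot give an exact permutation p under 0.33.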
